A study of Mus musculus with 9 samples.

Results

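The comparison described here sets the hippocampus of untreated 3xTg mice, a mouse model of Alzheimer's disease, against that of wild-type mice, gene by gene. It uses 6 of the 9 libraries of the study: 3 labelled WT vehicle and 3 labelled 3xTg vehicle, all chosen by their labels alone. All 6 are labelled as postmortem hippocampus of female mice at 9 months of age, given the solvent without compound by mouth 4 times a week. The WT vehicle libraries carry the genotype label C57BL/6J. The 3xTg vehicle libraries are labelled with the Swedish mutation of APP, the P301L mutation of tau and 1 further mutation. The remaining 3 libraries came from 3xTg mice given the compound LP-10d at 10 mg/kg on the same schedule. They entered the gene filter, the scaling and the estimate of the spread, but not the contrast itself. Their levels are given beside a gene where they help to place it.

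As background, the 3xTg line expresses mutant human APP and mutant human tau from transgenes driven by the Thy1 promoter, which is active in neurons. Such mice develop amyloid deposits and later tau inclusions in hippocampus and cortex. The line was made from embryos of mixed strain origin, while the WT mice are labelled as an inbred strain. In this design the mutations and the strain background cannot be told apart. Nothing in the labels says that the replicates of a group are separate animals, so each p-value measures the spread between these libraries, which may be technical. Because the samples are pieces of tissue, a gene or list that is lower may mean fewer cells of a type or less RNA in each cell, and these cannot be told apart either.

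The libraries were of similar size, with 16582086 to 19170969 counts over the 9. Mitochondrially encoded genes took 5.04% of the counts in WT vehicle replicate 3 and 2.28% to 2.86% in the other 8 libraries. The tissue label was checked with markers of the hippocampus and of its neighbours. Prox1, the transcription factor of dentate gyrus granule cells, stood at 66.4, 74.4 and 130 CPM, the share of a library's counts scaled to a common library size, in WT vehicle and at 70.2, 46.5 and 67.1 CPM in 3xTg vehicle. Markers of striatum, thalamus and choroid plexus were uneven and followed libraries rather than groups. The neocortical markers Cux2 and Lamp5 were higher in every 3xTg vehicle library than in any WT vehicle library, and are described with their list. For Drd2, which encodes a dopamine receptor of striatal neurons, the level was 79.7 CPM in 3xTg vehicle replicate 2 but 3.16 to 9.60 CPM in the other 5 libraries. Penk, an opioid precursor of striatal neurons, was at 165 CPM in the same library and at 13.9 to 34.6 CPM in the others. Tcf7l2, a transcription factor of the thalamus, reached 54.3 CPM in the third WT vehicle library and 26.6 CPM in 3xTg vehicle replicate 2, against 3.63 to 6.03 CPM elsewhere. Ttr, the transthyretin of choroid plexus, was at 33.4, 4016 and 2025 CPM in WT vehicle against 837, 98.8 and 26.6 CPM in 3xTg vehicle. The plot of region and cell markers shows these libraries apart. WT vehicle replicate 3, with its mitochondrial share, and 3xTg vehicle replicate 2, with its striatal markers, are called the 2 uneven libraries, and results that rest on them are given with and without both.

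**Figure D1:**
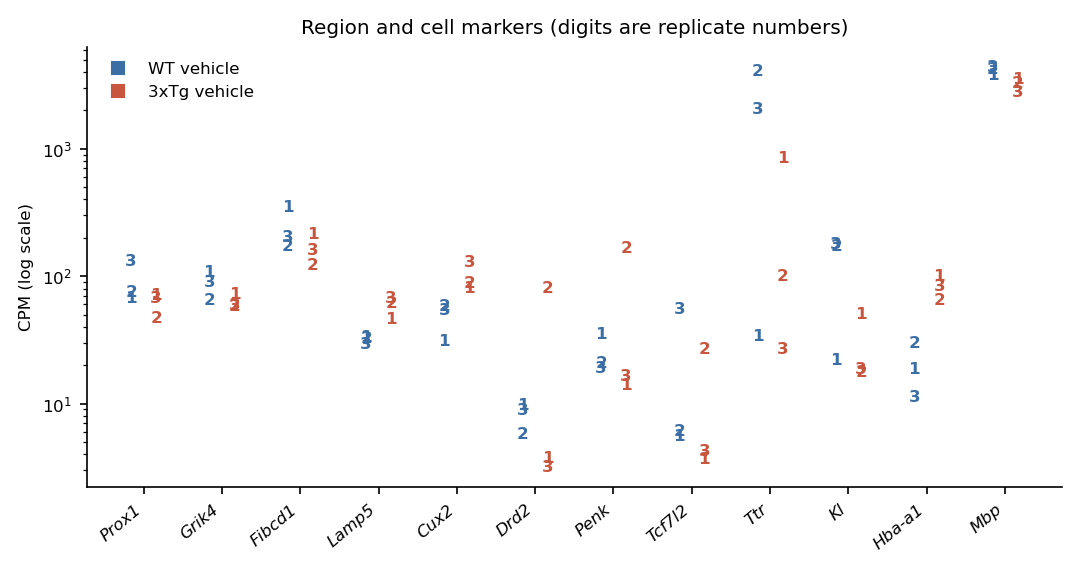
Level of 12 markers in CPM on a log axis, with each digit standing for a library's replicate number, blue for WT vehicle and red for 3xTg vehicle. Striatal Drd2 and Penk are high in 3xTg vehicle replicate 2 alone, and Ttr and Kl of the choroid plexus are high in WT vehicle replicates 2 and 3.

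The genes that the transgenes are built on were examined first. App, the amyloid precursor protein, stood at 1907, 1613 and 2195 CPM in WT vehicle and at 1721, 1720 and 1517 CPM in 3xTg vehicle. The groups overlapped, with a log2 fold change (3xTg vehicle minus WT vehicle throughout) of -0.21 ± 0.12 (SE). Mapt, which encodes tau, was even across the 6 libraries, at 661, 608 and 653 CPM against 628, 637 and 622 CPM. Thy1, a surface protein of neurons whose promoter drives the transgenes, was at 647, 517 and 1139 CPM against 1530, 1024 and 1197 CPM. Its log2 fold change of 0.70 ± 0.29 had an unadjusted p of 0.035, and WT vehicle replicate 3 lay within the 3xTg vehicle range. None of these genes passed the adjusted threshold of 0.05 with edgeR's quasi-likelihood test and Benjamini-Hochberg adjustment, and none did with DESeq2. Reads from human APP or MAPT sequence need not be counted at the mouse genes, so these levels do not measure the transgenes.

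Over all genes, 17396 had enough counts to be tested. With edgeR's quasi-likelihood test and Benjamini-Hochberg adjustment 1 gene passed 0.05, Plxnd1, which rose. That is 0.00575% of the genes tested. No gene fell past the threshold (0.00%). At an unadjusted p under 0.05, 2449 genes (14.1%) differed, 1218 higher in 3xTg vehicle (7.0%) and 1231 lower (7.08%). At an unadjusted p under 0.001, 107 were higher and 40 lower. The median size of the log2 fold change was 0.17 over all genes and 0.48 over those at an unadjusted p under 0.05. DESeq2 called 352 of the 15691 genes to which it gave an adjusted p (2.24%), 240 higher (1.53%) and 112 lower (0.714%), and all 352 had an edgeR unadjusted p under 0.05. In 3021 genes (17.4%) the 3 libraries of one group all lay above the 3 of the other, 1631 with 3xTg vehicle higher (9.38%) and 1390 with it lower (7.99%). The balance of the directions depended on the scaling: 49.7% of the genes at an unadjusted p under 0.05 were higher with TMM scaling and 61.7% with plain total counts, which placed 1466 higher and 909 lower. The median log2 fold change of all genes was 0.00066 with TMM scaling and 0.04 with total counts.

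**Figure D2:**
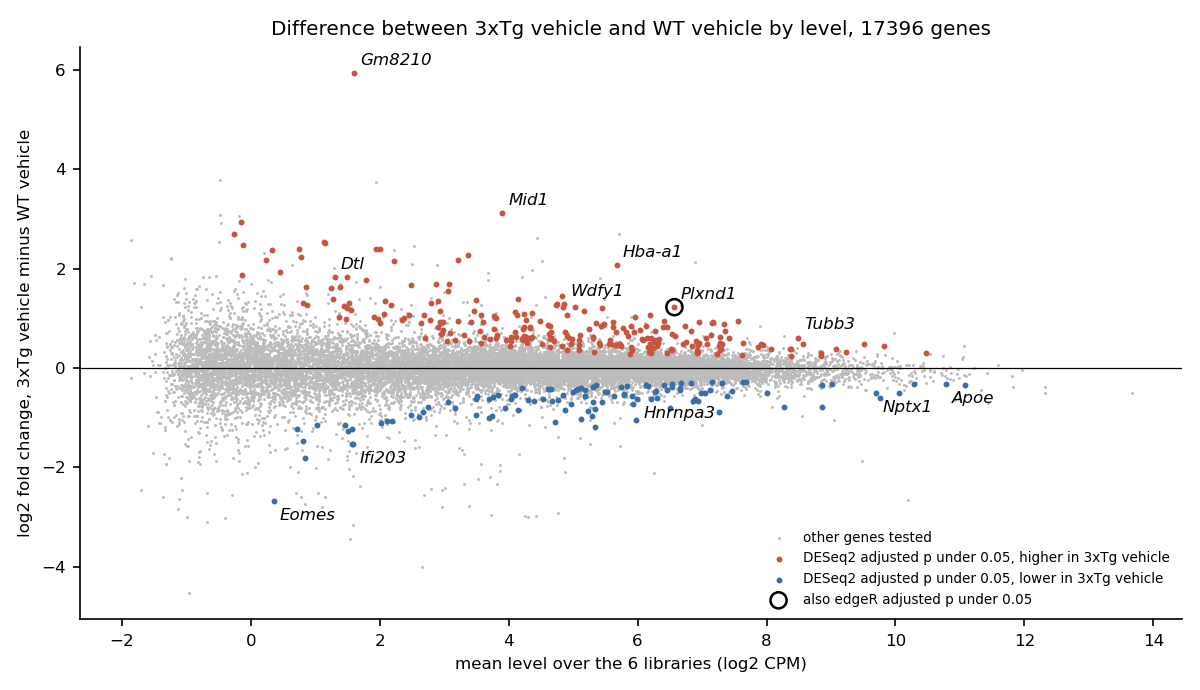
Log2 fold change of 3xTg vehicle over WT vehicle (vertical axis) against the mean level over the 6 libraries in log2 CPM (horizontal axis) for 17396 genes, with genes called by DESeq2 in red (240 higher) and blue (112 lower) and Plxnd1, the gene edgeR called, ringed. The called genes span the range of levels and lie above and below 0.

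Plxnd1 (ENSMUSG00000030123, minus strand of chromosome 6, 115954811 to 115995005, build mm10) encodes plexin D1, a receptor for semaphorins that guides blood vessels and axons. It stood at 49.4, 64.6 and 57.1 CPM in WT vehicle and at 123, 141 and 135 CPM in 3xTg vehicle. The lowest 3xTg vehicle library was thus well above the highest WT vehicle library, and the treated 3xTg libraries lay between them at 80.7, 79.1 and 97.6 CPM. The log2 fold change was 1.22 ± 0.12, or 2.33-fold, with an adjusted p of 0.0199 by edgeR's quasi-likelihood test, adjusted by Benjamini-Hochberg. The direction held in every alternative fit, with log2 fold changes from 1.13 to 1.32. The call was lost in 9 of them, with an adjusted p by the same test of 0.0542 in the 6 libraries alone and 0.117 without the 2 uneven libraries. It was also lost when 1 library was left out, with an adjusted p of 0.0985 without WT vehicle replicate 1, 0.0653 without WT vehicle replicate 3, 0.150 without 3xTg vehicle replicate 2 and 0.172 without 3xTg vehicle replicate 3.

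The rest of the plexin and semaphorin system did not move one way. Of 32 tested plexins, neuropilins, semaphorins and partners, 17 were higher and 15 lower, with a median log2 fold change of 0.02. An unadjusted p under 0.05 was found for 5 higher and 6 lower, a larger share than the 14.1% of all genes. Sema4a, a membrane-bound semaphorin, was at 61.9, 57.5 and 44.9 CPM against 67.7, 89.7 and 84.7 CPM (log2 fold change 0.56 ± 0.13). Sema3a, a secreted semaphorin that repels axons, was at 2.97, 4.66 and 2.67 CPM against 5.58, 8.80 and 6.59 CPM (1.01 ± 0.27). In both genes every 3xTg vehicle library exceeded every WT vehicle library. Nrp2, a neuropilin that serves as co-receptor for secreted semaphorins, went the other way, at 92.0, 88.2 and 93.0 CPM against 73.2, 63.2 and 60.6 CPM (-0.47 ± 0.12). DESeq2 called 4 of the list higher, Plxnd1 included, and 1 lower, Nrp2.

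The 15 genes with the smallest p-values in each direction were taken among named symbols with groups apart and a mean of at least 1 CPM, and DESeq2 called all of them. The 15 higher genes had edgeR adjusted p-values from 0.0199 to 0.0844 and the 15 lower genes from 0.0758 to 0.0953 (quasi-likelihood test, Benjamini-Hochberg), so all but Plxnd1 missed the threshold. Each of the 30 kept its sign in every alternative. These genes were picked by this contrast, so their values are a description of its leading edge. The treated 3xTg mean lay between the WT vehicle and 3xTg vehicle means for 15 of the 15 higher and 14 of the 15 lower genes. Because the 3xTg vehicle mean picks these genes and is one end of that interval, the count carries no test.

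Several of the higher genes are known from neurons. Tubb3, the tubulin of neurons, was very even within groups, at 300, 286 and 269 CPM against 436, 436 and 434 CPM (log2 fold change 0.61 ± 0.08). Stmn1, a microtubule-destabilizing protein of growing neurons that ranked just below the 15, was at 99.3, 125 and 103 CPM against 154, 171 and 191 CPM (0.65 ± 0.12). Reln, the matrix protein reelin of Cajal-Retzius cells and interneurons, was at 55.5, 59.4 and 61.4 CPM against 95.2, 89.3 and 83.5 CPM (0.60 ± 0.09). In these genes the 3 libraries of a group agreed to within a narrow band and the groups stood apart. Dpp10, an auxiliary subunit of A-type potassium channels, was at 26.3, 36.6 and 30.9 CPM against 50.2, 64.9 and 57.1 CPM (0.87 ± 0.13). Atp2b4, a plasma-membrane calcium pump, was at 105, 141 and 120 CPM against 176, 231 and 208 CPM (0.75 ± 0.13). Ntsr1, a neurotensin receptor, was at 6.74, 7.23 and 6.51 CPM against 12.4, 12.9 and 20.3 CPM (1.15 ± 0.20).

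Some other leading genes were expressed at low levels. Dtl, the substrate receptor of a ubiquitin ligase that acts in DNA replication, was at 1.09, 1.31 and 0.834 CPM against 3.16, 4.20 and 4.19 CPM (1.82 ± 0.22). Bmp3, a member of the BMP family that restrains BMP signalling, was at 3.66, 4.09 and 4.23 CPM against 7.94, 11.5 and 10.3 CPM (1.31 ± 0.17). Both were also above the treated libraries, which held 1.65 to 1.78 CPM of Dtl and 6.26 to 7.83 CPM of Bmp3. Tcap, the titin cap protein known from muscle, was at 0.457, 0.629 and 0.612 CPM against 1.84, 2.72 and 1.96 CPM. Has1, a hyaluronan synthase, was at 1.03, 1.15 and 1.06 CPM against 2.79, 2.50 and 2.50 CPM. Rprm, a p53 target that arrests the cell cycle, was more abundant, at 21.7, 25.3 and 19.6 CPM against 33.1, 38.8 and 38.2 CPM. Vwa5b2, Gramd2 and Ovol2 completed the 15 together with Hba-a1, a haemoglobin chain described with the blood genes.

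**Figure D3:**
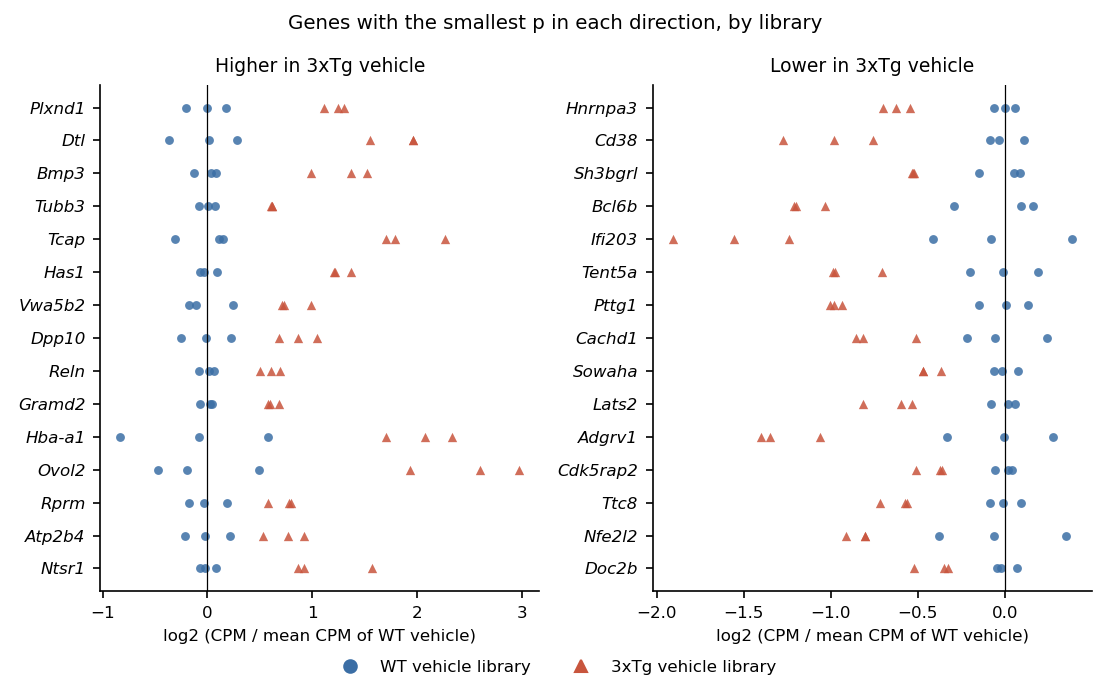
Each library's CPM relative to the mean of the WT vehicle libraries, on a log2 scale, for the 15 genes with the smallest p in each direction (left panel higher, right panel lower in 3xTg vehicle). Genes were picked for groups that do not overlap, so in every row the red triangles (3xTg vehicle) lie to one side of the blue circles (WT vehicle), and the rows differ in the spread within a group.

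The 15 lower genes have varied known roles. Hnrnpa3, an RNA-binding protein of the splicing machinery, was at 77.2, 73.8 and 80.2 CPM in WT vehicle against 47.4, 49.8 and 52.7 CPM in 3xTg vehicle (log2 fold change -0.62 ± 0.09). Nfe2l2, the NRF2 factor that switches on antioxidant genes, was at 17.4, 21.6 and 28.8 CPM against 12.9, 12.9 and 12 CPM (-0.84 ± 0.16). Cd38, an enzyme that consumes NAD, was at 8.74, 7.91 and 7.62 CPM against 4.10, 3.35 and 4.79 CPM (-0.98 ± 0.15). Each was lower in every 3xTg vehicle library than in any WT vehicle library. Pttg1, the securin that holds back chromosome separation, was at 19.4, 17.7 and 16.0 CPM against 8.94, 8.80 and 9.26 CPM (-0.97 ± 0.17). Lats2, a kinase of the Hippo pathway, was at 34.4, 31.3 and 33.4 CPM against 22.8, 18.8 and 21.8 CPM (-0.64 ± 0.12). Doc2b, a calcium sensor of spontaneous transmitter release, was at 114, 112 and 121 CPM against 91.9, 80.4 and 90.4 CPM (-0.40 ± 0.08). Ttc8, a component of the BBSome of primary cilia, was at 26.2, 27.7 and 29.8 CPM against 18.9, 18.7 and 16.9 CPM. Sh3bgrl, Bcl6b, Tent5a, Cachd1, Sowaha, Adgrv1 and Cdk5rap2 belong to the same 15, as does Ifi203 of the interferon genes.

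The other antioxidant genes did not follow Nfe2l2. Of 16 tested genes of the antioxidant response, most of them NRF2 targets, 11 were higher and 5 lower, with a median log2 fold change of 0.05. Srxn1, a sulfiredoxin, was higher at 103, 92.7 and 92.9 CPM against 82.2, 78.6 and 74.4 CPM in WT vehicle (0.30 ± 0.08), and DESeq2 called it. At an unadjusted p under 0.05, 2 of the 16 were higher and 1 lower, the lower one being Nfe2l2 itself.

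Some of the largest fold changes were in genes that also differed between 3xTg libraries. Mid1 (ENSMUSG00000035299, chromosome X, 169685199 to 170005736, plus strand, mm10), a ubiquitin ligase of microtubules whose gene lies at the edge of the pseudoautosomal region, was at 2.51, 3.14 and 3.56 CPM in WT vehicle. In 3xTg vehicle it was at 32.7, 32.8 and 14.8 CPM, a log2 fold change of 3.12 ± 0.55. In the treated 3xTg libraries it was at 40.1, 8.71 and 35.4 CPM, so the 3xTg libraries fell into different levels whatever their treatment. Gm8210, a processed pseudogene on chromosome 1 that was chosen for mention after its values were seen, held 6.52, 4.71 and 6.75 CPM in 3xTg vehicle and 0.057, 0.105 and 0.111 CPM in WT vehicle. Treated replicate 2 was as low as the WT vehicle libraries for Gm8210, at 0.059 CPM, while the other treated libraries were at 6.55 and 7.79 CPM. Wdfy1, one of the genes known to vary between mouse strains, was at 18.4, 20.1 and 12 CPM in WT vehicle against 38.8, 43.2 and 40.9 CPM (1.28 ± 0.23), and at 40.2, 23.7 and 41.9 CPM in the treated libraries. In all 3 genes treated replicate 2 was the lowest of the 6 3xTg libraries. Xist, which marks female cells, was at 357, 443 and 456 CPM against 490, 562 and 457 CPM, and Nnt, a mitochondrial enzyme gene with a known deletion in C57BL/6J mice, held 0 to 6 counts in each of the 9 libraries. Reads of near-identical copies could be split between Gm8210 and its parent, and the counting rule is not given in the sources used here.

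Another large increase was in a sparse gene. Adam33, a membrane metalloproteinase, was at 0.743, 2.31 and 0.556 CPM against 4.26, 8.34 and 6.86 CPM (2.40 ± 0.42). The groups did not overlap, but the highest 3xTg vehicle library was more than 1.5 times the lowest. Among genes with a named symbol, groups apart, an unadjusted p under 0.05 and a mean of at least 1 CPM, Mid1, Adam33, Dkkl1, Ap1m2, Sec14l3 and Ovol2 were among the 8 with the largest increases, between 2.23 and 3.12 on the log2 scale.

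Under the same conditions, the 8 largest decreases included Eomes and Igfbpl1, genes at low levels that are known from immature neurons. Choroid plexus genes, whose groups overlapped, ran from -3.43 to -1.88 and are described with their list. Eomes, the TBR2 factor of intermediate progenitors, was at 1.43, 3.67 and 1.56 CPM in WT vehicle against 0.631, 0.227 and 0.163 CPM (-2.67 ± 0.72). Igfbpl1, a gene of immature neurons, was at 1.83, 7.07 and 1.84 CPM against 1.58, 0.965 and 0.490 CPM (-1.83 ± 0.62). Neurod1, a factor that commits cells to a granule neuron fate, fell by less and lay outside the 8. It was at 13.3, 14.0 and 24.8 CPM against 9.73, 7.15 and 9.04 CPM (-1.0 ± 0.25). DESeq2 called Eomes and Neurod1 lower, and of the list of neuroblast and immature neuron genes it called 2 higher, Tubb3 and Stmn1. Over the 14 tested genes of that list 6 were higher and 8 lower, with a median log2 fold change of -0.11. Wdr63, Ebf3, Magel2, Dnajb13, Dnah11 and Dynlrb2 made up, with Eomes and Igfbpl1, the 8 largest decreases under the same conditions, and DESeq2 called 2 of the 8.

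Abundant genes differed by less in fold but carry more counts. Kif5c, a kinesin motor of axons, was at 859, 705 and 744 CPM against 877, 1111 and 1132 CPM (log2 fold change 0.43 ± 0.12). Camk2n1, an inhibitor of CaM kinase II, was at 602, 624 and 603 CPM against 690, 962 and 905 CPM (0.48 ± 0.14). Prkar1b, a regulatory subunit of protein kinase A, was at 579, 527 and 502 CPM against 634, 682 and 695 CPM (0.32 ± 0.08). On the lower side, Gria1, a subunit of AMPA receptors, was at 1349, 1037 and 1337 CPM against 1021, 740 and 875 CPM (-0.50 ± 0.14). Nptx1, a pentraxin that gathers AMPA receptors at synapses, was at 1104, 787 and 1029 CPM against 787, 608 and 662 CPM (-0.51 ± 0.13). For Nptx1 the lowest WT vehicle library and the highest 3xTg vehicle library were nearly level, at 787 CPM each. Ppp3ca, the catalytic subunit of calcineurin, was at 1479, 1270 and 1434 CPM against 1156, 1071 and 1121 CPM (-0.32 ± 0.10). Crtc1, a calcium-sensitive coactivator of CREB, was at 590, 513 and 627 CPM against 467, 460 and 456 CPM (-0.32 ± 0.09). DESeq2 called all 7 of these genes, while their edgeR adjusted p-values (quasi-likelihood test, Benjamini-Hochberg) ran from 0.181 to 0.218.

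Gene lists for regions, cell types and pathways are described from here on by counts and medians, beside 50.2% of all genes higher, a median of 0.00066, 14.1% of genes at an unadjusted p under 0.05 and 17.4% with groups apart. Apart from Plxnd1, none of their genes passed edgeR's adjusted threshold, and counts below are at an unadjusted p under 0.05 or by DESeq2 as stated. The level of a list in a library is the mean over its genes of log2 CPM, minus the mean over the 9 libraries. The 3 libraries of one group all lay above the 3 of the other in 13 of 55 lists. In 4 of these 3xTg vehicle was higher and in 9 it was lower. The share of single genes was 17.4%, but a list level averages over genes, so the shares are not alike. The 4 were cholesterol biosynthesis, tubulins, genes known to vary between mouse strains (3 tested) and the sex-specific list (1 tested, Xist). Some of these separations were narrow, as the plot of list levels shows. In the astrocyte identity list the closest libraries were at -0.01302 in WT vehicle and -0.01315 in 3xTg vehicle.

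**Figure D4:**
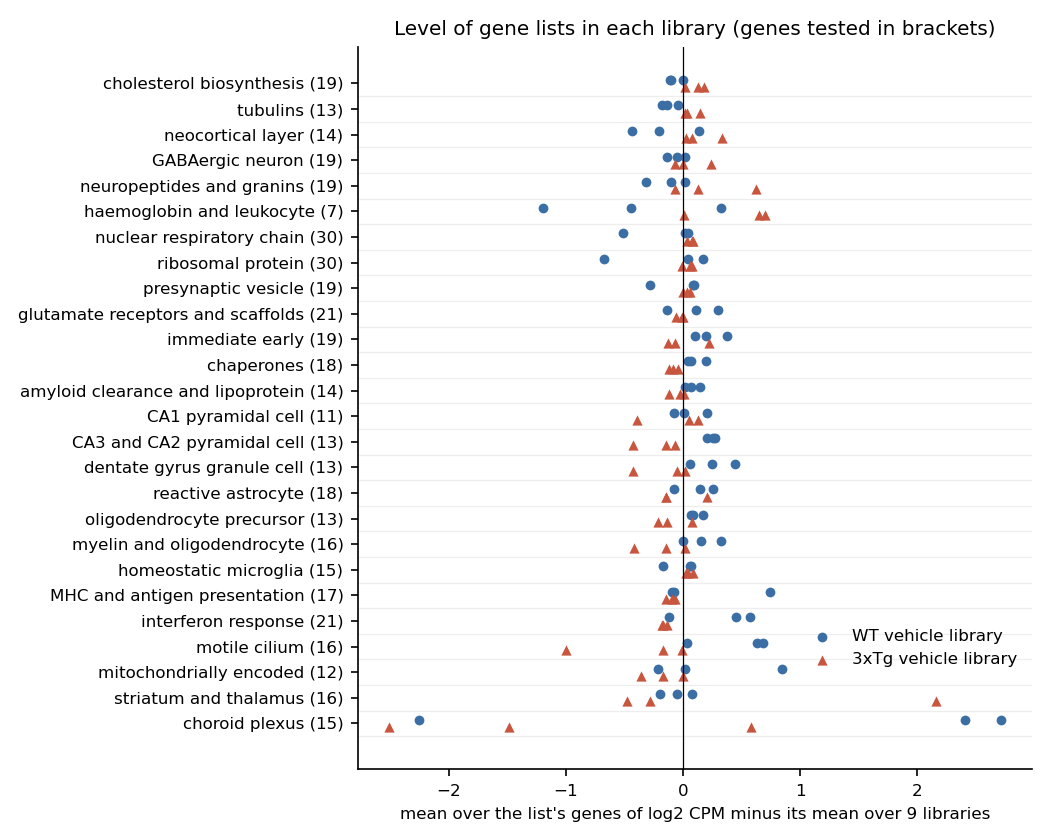
Level of 26 gene lists in each library, as the mean over the list's genes of log2 CPM minus its mean over the 9 libraries, with blue circles for WT vehicle, red triangles for 3xTg vehicle and the number of genes tested in brackets. The striatum and thalamus list is carried by a single 3xTg vehicle library, the choroid plexus list spreads over both groups, and the interferon list is high in WT vehicle replicates 1 and 2.

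Genes of CA3 and CA2 neurons were mostly lower in 3xTg vehicle. Of 13 genes of CA3 and CA2 pyramidal cells, 1 was higher and 12 lower, with a median log2 fold change of -0.51, and 7 were lower at an unadjusted p under 0.05. The list stood at 0.26, 0.20 and 0.27 in WT vehicle and at -0.07, -0.14 and -0.42 in 3xTg vehicle. DESeq2 called 2 of them, Nptx1 and Amigo2, an adhesion molecule enriched in CA2 and CA3, at 29.1, 23.1 and 25.0 CPM against 15.7, 18.6 and 14.3 CPM (-0.67 ± 0.14). Grik4, a kainate receptor subunit of CA3, was at 107, 64.8 and 88.4 CPM against 71.8, 58.0 and 58.5 CPM, with overlap. The median stayed below 0 without the 2 uneven libraries, at -0.39, where 0 of the 13 were higher. The level of the CA3 and CA2 list was lowest in 3xTg vehicle replicate 3. That library had the highest level of the neocortical layer list among the 9, at 0.33, and a low level of the choroid plexus list, at -2.51. Its level of the striatum and thalamus list was -0.28. With the choroid plexus and the striatum and thalamus levels as covariates, the median of the CA3 and CA2 list was -0.49. No neocortical level was among these covariates, so the part of cortical tissue in the difference was not tested. The part of the other tissues was not otherwise tested.

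The dentate gyrus list was lower as well, while the CA1 list turned on 1 library. Of 13 genes of dentate gyrus granule cells, 3 were higher and 10 lower (median -0.52), and 7 were lower at an unadjusted p under 0.05. Dock10, a guanine nucleotide exchange factor, was at 89.9, 96.1 and 118 CPM against 76.9, 70.2 and 76.2 CPM (-0.44 ± 0.11) and was the list's 1 DESeq2 call. Maml2, a coactivator of Notch, was at 20.5, 20.8 and 34.7 CPM against 17.3, 14.6 and 16.2 CPM (-0.66 ± 0.20). Without the 2 uneven libraries the dentate median was -0.14, with 1 gene lower at that level, and without WT vehicle replicate 3 alone it was -0.33. Of 11 genes of CA1 pyramidal cells, 3 were higher and 8 lower (median -0.23), with 1 higher and 1 lower at an unadjusted p under 0.05. The CA1 median was 0.02 without 3xTg vehicle replicate 2, -0.09 when WT vehicle replicate 1 was left out and -0.11 without the 2 uneven libraries.

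Genes of neocortical layers leaned the other way. Of 14 genes, 9 were higher and 5 lower (median 0.10), 4 were higher at an unadjusted p under 0.05 and 0 lower. Cux2, a factor of upper-layer neurons, was at 30.4, 57.3 and 53.6 CPM against 80.5, 87.9 and 127 CPM (1.06 ± 0.24). Lamp5, a marker of upper-layer and some inhibitory neurons, was at 33.1, 32.2 and 29.3 CPM against 45.4, 61.5 and 66.5 CPM (0.88 ± 0.18). DESeq2 called both, and the 3 libraries of each group were apart in each. Without the 2 uneven libraries the median was 0.30 and 12 of 14 were higher, and leaving out 1 library in turn gave medians from 0.03 (WT vehicle replicate 1) to 0.28 (WT vehicle replicate 3). Whether the share of cortical tissue differed between the dissections was not tested.

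The striatum and thalamus list was set by 1 library. Its 16 genes had a median log2 fold change of 1.29 with 11 higher, and its level was 2.16 in 3xTg vehicle replicate 2 against -0.48 to 0.07 in the other 5 libraries. Without the 2 uneven libraries the median was -0.25 and 5 of 16 were higher. Scn4b, a sodium channel subunit that is also abundant in striatum, was at 61.5, 37.5 and 34.0 CPM against 47.9, 475 and 58.1 CPM.

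Some genes of inhibitory neurons and neuropeptides were higher. Of 19 genes of GABAergic neurons, 11 were higher (median 0.13), 4 of them at an unadjusted p under 0.05 and none lower at that level. The median turned to -0.05 without 3xTg vehicle replicate 2, whose list level was 0.24 against -0.13 to 0.01 in the other 5 libraries, and to -0.01 with the tissue covariates. Leaving out WT vehicle replicate 1 gave 0.04, and leaving out replicate 2 of that group gave 0.05. Vip, a peptide of interneurons, was at 9.42, 8.18 and 7.62 CPM against 13.6, 13.7 and 20.4 CPM (0.92 ± 0.22). Gad1, the enzyme that makes GABA, was at 273, 278 and 237 CPM against 292, 362 and 312 CPM (0.29 ± 0.10). Pvalb, the calcium buffer of fast-spiking interneurons, was at 17.9, 18.3 and 12.4 CPM against 20.6, 23.4 and 27.8 CPM (0.56 ± 0.19). Each of these was higher in all 3 3xTg vehicle libraries. Of 19 neuropeptides and granins, 15 were higher (median 0.61, or 0.18 without the 2 uneven libraries). Adcyap1, the precursor of PACAP, was at 2.34, 2.57 and 3.06 CPM against 4.21, 8.17 and 6.86 CPM (1.27 ± 0.25), and DESeq2 called it together with Vip. Crh, the stress peptide, was at 1.2, 1.05 and 1.39 CPM against 1.84, 2.50 and 2.45 CPM (0.90 ± 0.22). The highest level of the neuropeptide list, 0.62, was in 3xTg vehicle replicate 2, the library with striatal markers, and the median was 0.21 without that library, 0.27 without 3xTg vehicle replicate 3, and 0.33 or 0.36 when WT vehicle replicate 1 or 3 was left out.

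Synaptic genes did not move as a block. Of 21 glutamate receptors and scaffolds, 5 were higher and 16 lower (median -0.20, or -0.08 without WT vehicle replicate 3, -0.07 without the 2 uneven libraries and -0.04 with the mitochondrial share as a covariate). Gria4, an AMPA receptor subunit of interneurons, was higher in 3xTg vehicle, at 49.5, 47.5 and 62.9 CPM against 59.9, 77.5 and 73.5 CPM (0.40 ± 0.13), opposite to Gria1. Camk2a, the main kinase of the postsynaptic density, was at 5899, 4601 and 6752 CPM against 4666, 4021 and 4602 CPM (-0.38 ± 0.15), with overlap. Of 19 presynaptic vesicle genes, 8 were higher and 11 lower (median -0.01). Stx1a, the syntaxin of vesicle fusion, stood out at 151, 144 and 114 CPM against 187, 218 and 216 CPM (0.60 ± 0.11) and was called by DESeq2. Of 13 GABA-A receptor subunits 8 were higher (median 0.09, or 0.02 to 0.15 when 1 library was left out in turn, the ends without WT vehicle replicates 2 and 3). Gabrb2, a subunit common in interneurons and cortex, was at 30.2, 47.5 and 55.4 CPM against 67.6, 74.5 and 66.9 CPM, whereas Gabra5, an extrasynaptic subunit of hippocampal pyramidal cells, was at 145, 104 and 166 CPM against 120, 66.0 and 99.8 CPM. Medians of the 19 sodium and calcium channels and the 19 potassium channels were 0.00 and -0.03, and Dpp10 was the only DESeq2 call in both.

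Activity-dependent genes were mostly lower, but the groups overlapped in the list's level. That level was 0.19, 0.11 and 0.37 in WT vehicle and -0.07, -0.13 and 0.22 in 3xTg vehicle. Of 19 immediate early genes, 2 were higher and 17 lower (median -0.26), with 2 higher and 3 lower at an unadjusted p under 0.05. The median was -0.14 without WT vehicle replicate 3. Without the 2 uneven libraries it was -0.07, and 12 of the 19 were lower. Nr4a3, an orphan nuclear receptor, was at 127, 81.6 and 136 CPM against 77.0, 55.1 and 64.3 CPM (-0.81 ± 0.18), and was called by DESeq2. Bdnf, the neurotrophin of activity-dependent plasticity, was at 35.8, 31.3 and 35.8 CPM against 29.0, 18.4 and 23.9 CPM (-0.53 ± 0.15). Egr4, a zinc-finger factor, was at 42.6, 41.9 and 44.9 CPM against 34.5, 34.1 and 36.1 CPM (-0.31 ± 0.09). In these 3 genes no 3xTg vehicle library reached the WT vehicle range. Nptx2, a pentraxin related to Nptx1, was opposite, at 42.4, 29.3 and 35.2 CPM against 47.9, 50.2 and 50.3 CPM (0.47 ± 0.15). Per2, a clock gene that also answers activity and glucocorticoids, was at 74.4, 65.1 and 96.3 CPM against 49.1, 61.2 and 56.9 CPM (-0.50 ± 0.14), while the 17 clock genes had a median of 0.07. Among 15 glucocorticoid-response genes 10 were lower (median -0.12). Cdkn1a, an inhibitor of the cell cycle, was higher in 3xTg vehicle, at 6.97, 7.81 and 6.51 CPM against 8.73, 14.2 and 11.4 CPM (0.68 ± 0.19).

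Genes of oligodendrocytes and their precursors were mostly lower in 3xTg vehicle, but the list levels overlapped. The myelin list was at 0.018 in 3xTg vehicle replicate 1 against -0.003 in WT vehicle replicate 1. For the precursor list, 3xTg vehicle replicate 2 was at 0.073 against 0.067 in WT vehicle replicate 1. Of 16 myelin and oligodendrocyte genes 2 were higher and 14 lower (median -0.29), 5 of them at an unadjusted p under 0.05, and DESeq2 called 0. Mbp, the major myelin protein, was at 3747, 4204 and 4380 CPM against 3466, 3250 and 2786 CPM (-0.38 ± 0.14). Mobp, another myelin protein, was at 1195, 1017 and 991 CPM against 927, 846 and 654 CPM (-0.40 ± 0.15). Myrf, the factor that switches on myelin genes, was at 132, 140 and 165 CPM against 121, 108 and 96.6 CPM (-0.43 ± 0.14). Replicate 3 was the lowest 3xTg vehicle library for each. Of 13 precursor genes 1 was higher and 12 lower (median -0.19), and 4 were lower at an unadjusted p under 0.05. Olig1 and Olig2, factors of the whole lineage, were at 154, 160 and 167 CPM against 141, 130 and 125 CPM and at 33.6, 39.9 and 34.1 CPM against 29.6, 26.2 and 28.5 CPM. Without the 2 uneven libraries the medians were -0.36 and -0.32, and 0 of 16 myelin genes were higher. Without 3xTg vehicle replicate 3 the myelin median was -0.18.

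Genes of reactive astrocytes were mostly lower in 3xTg vehicle and microglial lists were mixed. Of 18 genes of reactive astrocytes 4 were higher and 14 lower (median -0.26), with 1 higher and 7 lower at an unadjusted p under 0.05. The groups overlapped in the list's level, at -0.07, 0.26 and 0.15 in WT vehicle and 0.20, -0.15 and -0.15 in 3xTg vehicle. Gfap, the filament protein whose level climbs in reactive astrocytes, was at 517, 554 and 531 CPM in WT vehicle against 457, 335 and 434 CPM (-0.39 ± 0.12). Serpina3n, an acute-phase protease inhibitor, was at 57.3, 45.7 and 71.3 CPM against 50, 28.8 and 34.0 CPM (-0.63 ± 0.20). Genes of astrocyte identity were near even (median -0.05 over 14 genes). Homeostatic microglial genes had a median of 0.11 with 11 of 15 higher, and -0.10 with 4 of 15 higher without the 2 uneven libraries, so their direction turned on those libraries. Among 17 genes of disease-associated microglia, the state described around amyloid plaques, 8 were higher and 9 lower (median -0.04), with 0 higher and 5 lower at an unadjusted p under 0.05. Their median was between -0.19 (without 3xTg vehicle replicate 2) and 0.14 (without WT vehicle replicate 2) when 1 library was left out. Csf1, a growth factor for microglia, was at 45.5, 44.4 and 50.1 CPM against 37.9, 36.1 and 38.0 CPM (-0.32 ± 0.09). Gpnmb, a glycoprotein of lipid-laden phagocytes, was at 8.97, 8.91 and 12.6 CPM against 7.68, 4.94 and 6.75 CPM (-0.65 ± 0.19).

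Interferon-response genes were all lower in 3xTg vehicle. Such genes are switched on by type I interferon through the ISGF3 complex, which binds an element with repeated GAAA motifs. Of 21 tested genes 0 were higher and 21 lower, with a median log2 fold change of -0.51, and 7 were lower at an unadjusted p under 0.05. DESeq2 called 1 of them, Ifi203, a DNA-sensing protein of the HIN-200 family (ENSMUSG00000039997, chromosome 1, 173920407 to 173942672, mm10), at 4.23, 3.35 and 5.84 CPM in WT vehicle against 1.89, 1.19 and 1.52 CPM (-1.53 ± 0.26). Irf9, the DNA-binding subunit of ISGF3, was at 19.1, 20.8 and 21.1 CPM against 13.5, 15.5 and 15.6 CPM (-0.45 ± 0.13). Ddx58, which encodes the RNA sensor RIG-I, was at 7.2, 8.28 and 7.23 CPM against 4.58, 5.68 and 5.45 CPM (-0.53 ± 0.15). Trim30a, an interferon-induced ubiquitin ligase, was at 3.37, 3.25 and 2.73 CPM against 1.68, 2.04 and 1.58 CPM (-0.82 ± 0.27). In these 4 genes every 3xTg vehicle library was below every WT vehicle library.

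The libraries differed in how strongly they carried the interferon list. Its level was 0.57 and 0.46 in WT vehicle replicates 1 and 2 and -0.12 in replicate 3, against -0.14, -0.17 and -0.18 in 3xTg vehicle. WT vehicle replicate 3 was therefore close to the 3xTg vehicle libraries. Leaving out both it and 3xTg vehicle replicate 2 gave a median of -0.70, with 15 of 21 genes lower at an unadjusted p under 0.05. Dropping a WT vehicle library that lies near the 3xTg vehicle level widens the gap by itself, so that count is no separate evidence. The median shrank to -0.39 when either of the high WT vehicle libraries, replicate 1 or 2, was dropped instead. Many of the interferon genes are expressed at a few CPM, and Ifi203 belongs to a gene cluster whose content differs between mouse strains.

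Promoters of interferon genes are shown because members of the list lay on one side together and share a known element. In the RefSeq table of build GRCm38.p6, which holds 250 bases before to 50 bases after each gene's start, 18 of the 21 genes had a promoter. A repeat of GAAA with any 2 bases between its copies was searched on both strands. It was found in 11 of these 18 (61.1%), against 433 of 12371 tested genes with a promoter in the table (3.50%). Genes of this list are known for this element, so the excess describes the list and carries no information about these libraries. Below are the stretches around the motif in 5 of the 11 genes, 5′ to 3′ on the gene's strand, with the motif in capitals. Overlapping copies run together, and Trim30a holds the motif on the other strand.
Ifi203, chr1:173942493-173942557, minus strand: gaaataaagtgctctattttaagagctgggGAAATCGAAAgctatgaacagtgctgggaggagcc
Isg15, chr4:156200845-156200926, minus strand: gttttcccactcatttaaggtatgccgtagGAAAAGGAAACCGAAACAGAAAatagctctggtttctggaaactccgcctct
Oas1a, chr5:120907526-120907575, minus strand: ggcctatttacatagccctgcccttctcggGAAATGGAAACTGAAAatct
Bst2, chr8:71537557-71537632, minus strand: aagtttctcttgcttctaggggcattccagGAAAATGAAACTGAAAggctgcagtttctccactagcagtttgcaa
Trim30a, chr7:104465194-104465259, minus strand: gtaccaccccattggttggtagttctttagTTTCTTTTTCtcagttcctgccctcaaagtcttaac

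Of the other genes shown here, Bst2, which encodes tetherin, was at 8.51, 23.5 and 8.51 CPM in WT vehicle against 8.05, 6.07 and 6.26 CPM (-1.0 ± 0.40). Isg15, a ubiquitin-like modifier with 3 overlapping copies of the motif, was at 4.34, 2.78 and 1.5 CPM against 2.05, 2.10 and 1.52 CPM (-0.60 ± 0.34), with overlap. Oas1a, an oligoadenylate synthetase with 2 copies, was at 2.17, 1.73 and 0.612 CPM against 1.10, 1.19 and 0.871 CPM (-0.51 ± 0.40), also with overlap. A match is a description of these letters and not a measured binding site.

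**Figure D5:**
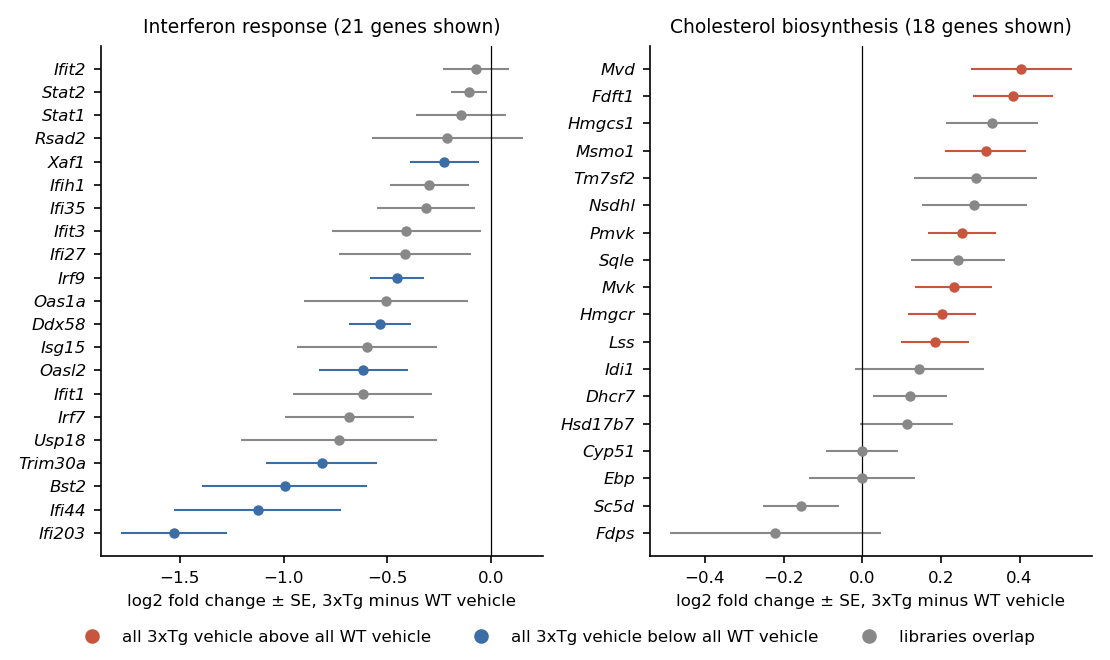
Log2 fold change of 3xTg vehicle over WT vehicle with its standard error for the 21 tested genes of the interferon response (left) and 18 of the 19 tested genes of cholesterol biosynthesis (right), coloured by whether the 3 libraries of each group are fully apart. All 21 interferon genes lie below 0, and 15 of the 18 cholesterol genes plotted lie above it.

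Antigen presentation and complement were lower or even. Of 17 genes of MHC and antigen presentation 3 were higher and 14 lower (median -0.25), but the list's level was 0.74 in WT vehicle replicate 2 and between -0.15 and -0.07 in the other 5 libraries. Without WT vehicle replicate 2 its median was -0.03, and without WT vehicle replicate 3 it was -0.45. H2-Aa and H2-Ab1, class II chains of antigen-presenting cells, were at 1.26, 7.28 and 3.06 CPM against 1.89, 1.36 and 1.14 CPM and at 2.28, 12.3 and 4.73 CPM against 2.58, 2.44 and 2.29 CPM. B2m, the light chain of class I, was lower in each 3xTg vehicle library, at 59.5, 71.6 and 92.3 CPM against 48.9, 51.8 and 57.9 CPM (-0.49 ± 0.15). Of 15 complement genes 6 were higher (median -0.15, or -0.31 without 3xTg vehicle replicate 1 and -0.03 without WT vehicle replicate 2). C4b, a complement component made by glia, was at 148, 117 and 78.9 CPM against 102, 89.4 and 88.0 CPM, with overlap, and the cytokine and NF-kB list had a median of -0.10 over 10 genes.

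Choroid plexus genes were the lowest list by median, and the least even. All 15 were lower, with a median log2 fold change of -2.66, yet the groups overlapped in each of the 15 and DESeq2 called 0. The level of the list was -2.25, 2.72 and 2.41 in WT vehicle and 0.58, -1.48 and -2.51 in 3xTg vehicle, and the median was -4.35 without 3xTg vehicle replicate 1. Motile cilium genes, which mark ependymal cells and choroid plexus, were lower in 14 of 16 (median -0.85), 9 at an unadjusted p under 0.05 and 10 with groups apart. Foxj1, the master factor of motile cilia, was at 17.5, 32.1 and 32.8 CPM against 15.8, 13.7 and 7.46 CPM (-1.15 ± 0.37). Dnah9, an axonemal dynein, was at 31.6, 30.9 and 38.6 CPM against 28.1, 17.5 and 22 CPM (-0.58 ± 0.16). The cilium list stood at 0.04, 0.63 and 0.68 in WT vehicle, with the highest levels in the 2 libraries that were also high in choroid plexus genes, and at -0.01, -0.17 and -1.0 in 3xTg vehicle. With the choroid plexus and the striatum and thalamus levels as covariates its median was -0.56, and that of the choroid plexus list, which supplied a covariate, -0.07.

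Red-cell transcripts were higher. Of 7 tested haemoglobin and leukocyte genes 6 were higher (median 0.89). Hba-a1, an alpha-globin chain, was at 18.6, 29.5 and 11.1 CPM against 99.9, 64.4 and 83.4 CPM (2.06 ± 0.33), and Hbb-bs, a beta-globin chain, was at 17.6, 31.3 and 18.3 CPM against 57.7, 30.8 and 60.2 CPM (1.14 ± 0.28). DESeq2 called both. Hba-a1 has a near-identical copy in the genome, and how reads of such copies were divided is not given in the sources used here. The list's level was lowest in WT vehicle replicate 3, at -1.19, and its median was 0.55 without that library and 1.45 without WT vehicle replicate 2. Genes of endothelial and mural cells were even (median -0.03 over 17 genes). The part of blood left in the tissue in this difference was not tested.

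Genes of cholesterol synthesis were mostly a little higher in 3xTg vehicle. Cells build cholesterol through a chain of enzymes whose genes are switched on together by SREBP2 when sterols run low. Of 19 genes 16 were higher and 3 lower (median 0.23), 8 higher and 0 lower at an unadjusted p under 0.05, and 8 with groups apart. The level of the list was 0.00, -0.12 and -0.10 in WT vehicle and 0.18, 0.02 and 0.13 in 3xTg vehicle, so the groups were apart by a small margin. Fdft1, squalene synthase, was at 84.4, 72.0 and 81.8 CPM against 107, 93.9 and 109 CPM (0.38 ± 0.10) and was the list's 1 DESeq2 call. Mvd, which makes isopentenyl diphosphate, was at 28.2, 25.2 and 23.8 CPM against 37.9, 28.4 and 35.8 CPM (0.41 ± 0.13). Msmo1, a sterol oxidase, was at 49.5, 39.3 and 40.3 CPM against 56.7, 50.5 and 53.1 CPM (0.31 ± 0.10). The median was 0.25 without the 2 uneven libraries and 0.20 with the mitochondrial share as a covariate. It ran from 0.18 to 0.26 when each of the 6 libraries was left out in turn.

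The sterol element TCACNCCAC, searched on both strands in the same promoter table, was found in 1 of the 14 cholesterol genes with a promoter there, against 171 of 12371 tested genes (1.38%). That gene was Hmgcs1, the synthase that opens the pathway, at 123, 100 and 88.7 CPM in WT vehicle against 137, 121 and 135 CPM in 3xTg vehicle (0.33 ± 0.12), with overlap. Its stretch is shown because it is the single match, with the motif in capitals, on the plus strand in build GRCm38.p6.
Hmgcs1, chr13:119690184-119690252: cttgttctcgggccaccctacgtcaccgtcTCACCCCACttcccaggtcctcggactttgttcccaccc
CCAAT, a box bound by the factor NF-Y and found in 42.2% of the tested genes' promoters, was present in 14 of the 14. These windows cover only 300 bases, and the absence of a motif there says nothing about the rest of a promoter.

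Tubulin genes were mostly higher. Of 13 genes 11 were higher and 2 lower (median 0.16), 2 at an unadjusted p under 0.05 and 4 with groups apart. The median was 0.09 without 3xTg vehicle replicate 1, 0.09 when WT vehicle replicate 3 was left out and 0.08 with the mitochondrial share as a covariate. Tubb5, a broadly expressed beta-tubulin, was at 442, 410 and 420 CPM against 490, 518 and 492 CPM (0.24 ± 0.07), and DESeq2 called it together with Tubb3. Tubb4b, another beta-tubulin, was at 261, 266 and 220 CPM against 294, 273 and 279 CPM.

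Housekeeping lists depended on WT vehicle replicate 3. Of 30 nuclear genes of the respiratory chain 26 were higher (median 0.19), and of 30 ribosomal protein genes 22 were higher (median 0.15), while 11 of 12 mitochondrially encoded genes were lower (median -0.54). WT vehicle replicate 3 stood at -0.51, -0.68 and 0.85 for these lists, and the other 5 libraries lay between -0.36 and 0.17. Without it the medians were 0.02, -0.08 and -0.10. The mitochondrially encoded mt-Nd1, a subunit of complex I, was at 2556, 2067 and 5680 CPM against 1938, 2251 and 2095 CPM.

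Genes of amyloid and tau biology were near even apart from a few. Among 17 genes of amyloid precursor processing 6 were higher (median -0.06), with Mme, the amyloid-degrading neprilysin, at 3.71, 3.46 and 4.12 CPM against 4.52, 11.7 and 5.28 CPM (0.93 ± 0.32). Of 14 genes of amyloid clearance and lipoproteins 2 were higher and 12 lower (median -0.11). Apoe, the lipid carrier of astrocytes, was at 1786, 2017 and 2075 CPM against 1592, 1541 and 1573 CPM (-0.32 ± 0.10) and was called by DESeq2. Clu, which encodes clusterin, was at 1036, 1215 and 1507 CPM against 1031, 903 and 1041 CPM (-0.34 ± 0.13), with overlap. Among 20 genes of tau and its kinases 10 were higher and 10 lower (median 0.00). Of 13 DYRK, CLK, GSK3 and HIPK kinases 3 were higher (median -0.04), with Dyrk3, a kinase of stress granules, at 17.1, 16.3 and 17.4 CPM against 14.1, 11.0 and 14.5 CPM (-0.36 ± 0.13).

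Protein quality control showed small shifts. Of 18 chaperones 3 were higher and 15 lower (median -0.15), 4 of them at an unadjusted p under 0.05. Hspa1b, an inducible HSP70, was at 19.3, 18.1 and 28.0 CPM against 16.8, 13.6 and 12.8 CPM (-0.59 ± 0.17). Bag3, a co-chaperone of selective autophagy, was at 14.0, 17.1 and 32.8 CPM against 13.9, 12.3 and 13 CPM. Both were highest in WT vehicle replicate 3, and without it and 3xTg vehicle replicate 2 the list's median was -0.06. In the unfolded protein response, with 6 of 16 higher (median -0.15, or -0.07 without WT vehicle replicate 3), DESeq2 called Pdia4, a disulfide isomerase of the endoplasmic reticulum, at 32.2, 38.6 and 43.1 CPM against 28.4, 27.4 and 28.5 CPM (-0.43 ± 0.11). Medians were 0.09 for 18 proteasome genes, 0.01 for 22 genes of autophagy and lysosome, -0.06 for 22 splicing factors, -0.03 for 17 perineuronal net genes, -0.03 for 24 BMP and activin genes and -0.01 for 23 Wnt genes.

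Genes at an unadjusted p under 0.05 were spread over the genome. Over the 20 chromosomes with at least 100 tested genes their share ran from 10.9% to 18.2%. Over 453 windows of 5 Mb with at least 10 tested genes the median share was 13.3%. The window with the largest share, 41.7%, was 55 to 60 Mb of chromosome X, with 5 of 12 genes, 1 higher and 4 lower. Fgf13, an intracellular partner of sodium channels, was at 191, 143 and 233 CPM there against 141, 126 and 139 CPM (-0.48 ± 0.15). Next was 35 to 40 Mb of chromosome 3, with 12 of 29 genes (41.4%), 5 higher and 7 lower. It held Spry1, an inhibitor of growth factor signalling, at 13.4, 11.9 and 15.6 CPM against 9.21, 8.85 and 8.49 CPM (-0.62 ± 0.13), and Atp11b, a phospholipid flippase, at 63.1, 72.7 and 59.1 CPM against 84.5, 91.4 and 81.9 CPM (0.40 ± 0.09). DESeq2 called both, and also Gm11549, at 4.46, 4.93 and 3.34 CPM against 7.89, 11.4 and 17.9 CPM, and Cetn4, a centrin, at 5.26, 5.82 and 6.51 CPM against 4.10, 2.44 and 1.85 CPM. Without the 2 uneven libraries the share was 44.8% (13 of 29) in the chromosome 3 window and 25% (3 of 12) in the chromosome X window. The mitochondrial genome followed these windows, with 6 of 15 genes (40%), all lower, and 3 of 15 (20%) without the 2 uneven libraries.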

How the data were processed

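RNA of the hippocampus was sequenced in 3 WT vehicle, 3 3xTg vehicle and 3 compound-treated 3xTg libraries, from 300 ng of RNA per library per the labels' protocols. The authors deposited whole-number read counts per gene and FPKM values of the same 9 libraries. The deposited FPKM values were proportional to the counts divided by the library total (largest relative deviation 3.29e-14), so both hold the same measurement. Per the submitters' processing notes the authors used mm10. Which aligner and counting rule they used, and whether strand was used, is not given in the sources used here.

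Genes were filtered with filterByExpr and scaled by TMM in edgeR 4.0.16 (R 4.3.3), which kept 17396 of 55471 genes. Group means of all 9 libraries were fitted by the quasi-likelihood method, and 3xTg vehicle was contrasted with WT vehicle at a Benjamini-Hochberg adjusted p of 0.05. The test was tested on simulated data first. DESeq2 1.42.0, limma 3.58.1 (also on log2 of FPKM plus 0.1 or 1), other scalings, filters and covariates, a replicate block and leaving out libraries were alternatives. CPM uses TMM-scaled library sizes. Totals of 16582086 to 19170969 counts and 3 libraries a group set the precision, with a common biological coefficient of variation of 0.157. No replicate pair agreed within sampling noise. With 3 libraries in each group the smallest p of an exact permutation test is 0.1, so none was used.

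The members and gene lists were chosen with earlier results of these data known. Named genes were those past the threshold, the 15 with the smallest p and the 8 with the largest change in each direction among symbols with groups apart and a mean of at least 1 CPM, up to 4 per list or window by p, the 5 most abundant in each direction, the transgene genes, Xist, Nnt and tissue markers. Those described are a part of them, and some are not reported here. Gm8210, Hmgcs1, Isg15, Oas1a and Bst2 fall outside this rule and were chosen after their values were seen. Promoter sequences come from RefSeq, build GRCm38.p6.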

Additional observations from a re-analysis of the deposited data

How the results depend on the processing

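The count of genes higher in 3xTg vehicle, 1 by edgeR's quasi-likelihood test, was 240 with DESeq2, 3 with FPKM plus 0.1, 2 with FPKM plus 1, 3 with no low-count filter, 0 with the mitochondrial share as a covariate and 0 with the tissue levels as covariates. The count of genes lower, 0, was 112 with DESeq2. Leaving out 1 library in turn gave 0 to 8 higher and 0 to 3 lower, the most without WT vehicle replicate 2. In the 6 libraries alone the 1 gene called was Gm8210 (adjusted p = 0.000956) and not Plxnd1.

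The replicate numbers did not pair the WT vehicle and 3xTg vehicle libraries. Those of the same number had correlations of their deviations from -0.173 to -0.0906, against -0.0509 to 0.176 for the others. Between 3xTg vehicle and treated 3xTg libraries the correlations were 0.173, 0.104 and 0.375 for the same number, against -0.298 to 0.18 for the others. With the replicate block 1 gene was higher and 0 lower, and the adjusted p of Plxnd1 by edgeR's quasi-likelihood test was 0.0426, or 0.14 with the block in the 6 libraries alone.

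Of the genes named, the log2 fold change turned in 5. Mapt was at 0.016 with FPKM plus 0.1, 0.016 with FPKM plus 1 and 0.017 with total counts. With the tissue covariates Drd2 was at -0.67, Penk at -0.48 and Ttr at 0.71, and without the 2 uneven libraries Drd2 was at -1.16 and Penk at -0.88. With the mitochondrial covariate Tcf7l2 was at 1.17. Leaving out 1 library in turn gave -1.23 to 2.37 for Drd2, -0.71 to 1.87 for Penk and -2.49 to 0.97 for Tcf7l2. The cause was not tested. Of 770 list medians under the alternatives, 44 moved beyond the spread between libraries.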

Other observations

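Values of a few genes differed by library. Gm5148, chosen after its values were seen, held 2.86, 3.41 and 5.28 CPM in WT vehicle against 1.68, 0.114 and 0.055 CPM in 3xTg vehicle, with 3.33, 3.85 and 2.25 CPM in the treated 3xTg libraries. It is among the genes counted in the chromosome 3 window above and among the lower calls without 3xTg vehicle replicate 1, which held more of it than the other 3xTg vehicle libraries. The Y-linked genes Ddx3y, Eif2s3y and Kdm5d, also chosen after their values were seen, held 2, 4 and 3 counts in 3xTg vehicle replicate 1 and 0 in each of the other 8 libraries, all labelled female.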
